A study of Mus musculus with 6 samples.

Results

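The 10 genes described here encode the 3 TGF-beta ligands (Tgfb1, Tgfb2 and Tgfb3), the 3 classical TGF-beta receptors (Tgfbr1, Tgfbr2 and Tgfbr3) and the 4 latent TGF-beta binding proteins (Ltbp1 to Ltbp4). They were chosen by name, with every probe set that the platform annotation assigned to 1 of these symbols and to no other gene. This gave 24 of 34945 single-gene probe sets, and 10 of 18193 genes. Signals came from Affymetrix mouse arrays of aortic roots, which held the valve leaflets, the annulus and adjoining ascending aorta. Klotho-deficient mice were homozygous for the klotho mutation and controls were homozygous for the wild-type allele, all on the C57BL/6J albino strain and 6 to 6.5 weeks old. An array read 1 pool of 3 mice, and each genotype had 3 arrays and 9 mice, so p-values measure the spread between pools and not between single mice.

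TGF-beta is secreted in a latent form, in which its own propeptide stays wrapped around the ligand and is bound to a latent TGF-beta binding protein in the matrix. Integrins, proteases and other activators release the ligand, which then assembles type II and type I receptor kinases that phosphorylate Smad transcription factors, while the type III receptor betaglycan presents ligand to them. In the aortic root this system is known for its part in valve formation and in the upkeep of the elastic wall, and mutations of several of its genes cause aneurysm of the root.

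Promoter sequence was found for 8 of the 10 genes in the RefSeq table of the GRCm38.p6 build, all but Tgfb3 and Tgfbr3. The 250 bases before the start are shown for Tgfb2 and Ltbp1, because the signals of this ligand and this binder ran in the same order over the 6 arrays (Pearson r = 0.92). They are printed in the direction of transcription, with the matches named after them in capitals. The Tgfb2 window is chr1:186705990-186706239 on the minus strand and the Ltbp1 window is chr17:75005279-75005528 on the plus strand.
Tgfb2: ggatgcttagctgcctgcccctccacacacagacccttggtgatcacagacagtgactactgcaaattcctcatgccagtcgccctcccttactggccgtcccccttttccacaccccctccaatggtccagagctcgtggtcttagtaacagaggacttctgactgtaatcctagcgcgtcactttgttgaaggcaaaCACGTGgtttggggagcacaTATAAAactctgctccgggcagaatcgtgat
Ltbp1: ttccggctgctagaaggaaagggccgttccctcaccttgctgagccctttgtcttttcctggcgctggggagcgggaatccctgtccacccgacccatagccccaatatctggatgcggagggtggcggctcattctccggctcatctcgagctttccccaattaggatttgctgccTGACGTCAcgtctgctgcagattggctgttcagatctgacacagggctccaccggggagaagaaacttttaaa
In the Tgfb2 window the capitals mark an E-box, CACGTG, that begins 51 bases before the start and a TATA box, TATAAA, that begins 31 bases before it. In the Ltbp1 window they mark a cyclic AMP response element, TGACGTCA, that begins 73 bases before the start. Both strands were searched, and these motifs do not overlap each other. Over all 32851 promoter windows of this length, 6.02% held CACGTG, 12.4% held TATAAA and 1.55% held TGACGTCA. The letters CAGAC, a Smad half-site, were in 6 of the 8 windows and in 42.2% of all windows. Each of the other 3 motifs was in 1 of the 8, so the windows of Tgfb2 and Ltbp1 share none of those 3 while both hold CAGAC. A match describes letters in a window and does not show that a factor binds there.

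The whole set of arrays gave no gene past the threshold. Limma, a linear model with a variance estimate shared across genes, called 0 of 18193 genes (0%) at an adjusted p of 0.05, and 1166 (6.41%) had an unadjusted p under 0.05. Genotypes did not overlap, meaning that all 3 arrays of one lay above all 3 of the other, in 2450 genes (13.5%). Background was taken as 161.8, the highest signal of 27 control probe sets for Bacillus genes. Transcripts of the Y-linked genes Kdm5d, Eif2s3y and Uty exceeded that level on 4 arrays, the 3 of wild type and klotho-deficient replicate 1, but not on klotho-deficient replicates 2 and 3. Xist was above it on all 6 arrays, and the labels give no sex of the pooled mice. On wild-type replicate 3 the 3' to 5' ratio of the Gapdh controls, a measure of RNA integrity, was 7.18 against 3.23 to 4.08 elsewhere. The same ratio of the Actb controls was 1.1 on that array, within the 1.07 to 1.18 of the others. Klotho itself did not check the labels (Kl, -0.04 ± 0.23 on the log2 scale, adjusted p = 0.983), and the position of its probes relative to the mutant allele is not known here. All 7 smooth muscle markers and all 7 fibroblast markers were above background on every array, as were the 8 endothelial markers.

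Of the 10 genes, 6 had a higher and 4 a lower mean log2 signal in klotho-deficient roots, and 0 passed the threshold against 0% of all genes. Adjusted p-values ran from 0.763 for Tgfb3 to 0.973 for Tgfbr2. At an unadjusted p under 0.05 there was 1 gene, Tgfb3, which was lower, against 6.41% of all genes. Genotypes did not overlap in that 1 gene alone, against 13.5% of all genes, so with 10 genes both counts are near their background. The median difference was 0.09 on the log2 scale, against 0 over all genes, and the median size of a difference was 0.20 against 0.24. In bulk tissue, fewer cells of a type and less RNA per cell cannot be told apart. A difference is the klotho-deficient mean less the wild-type mean of log2 intensity, ± SE, and its 95% interval is that of limma.

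**Figure D1:**
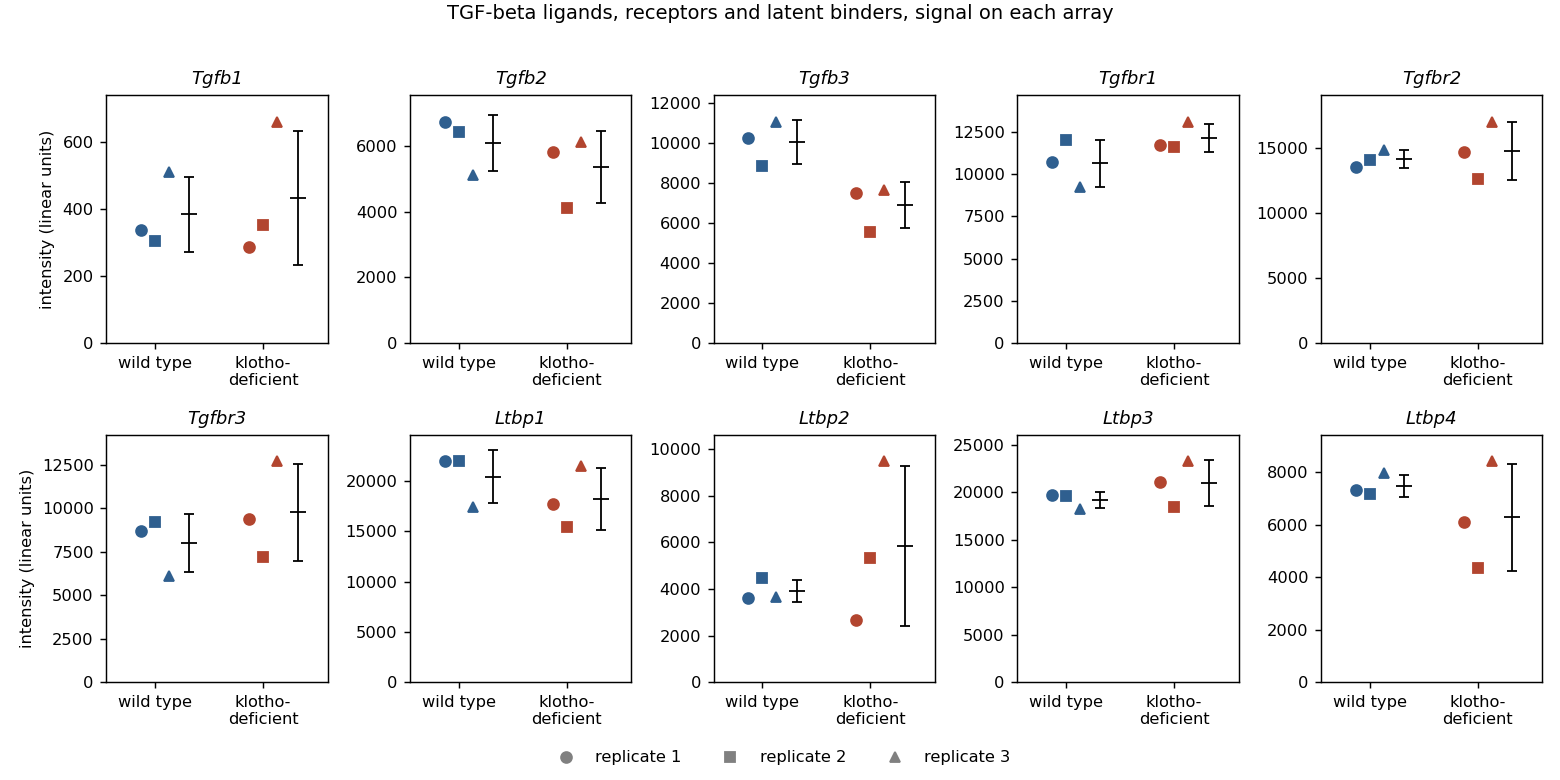
Linear array intensity of each of the 10 genes on each array, wild type in blue and klotho-deficient in red, with the symbol giving the replicate number and the black bar the mean ± SD of 3 arrays. Tgfb3 is the gene whose genotypes do not overlap, and klotho-deficient replicate 3 (red triangle) is the highest klotho-deficient array in all 10 panels.

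Among the ligands, Tgfb3 had the largest difference. This isoform acts in palate and heart cushion development and is made by cells of the vessel wall. Its signal was 7500.6, 5559.5 and 7640.2 on klotho-deficient replicates 1 to 3, and 10241.6, 8856.7 and 11054.9 on the wild-type arrays. Every klotho-deficient array lay below every wild-type array, with klotho-deficient replicate 2 the lowest. Means were 6900 ± 1160 and 10050 ± 1110 (SD, n = 3), 1.47-fold higher in wild type. The difference of -0.55 ± 0.21 (95% interval -1.06 to -0.04) had an unadjusted p of 0.0383 and an adjusted p of 0.763 in limma, which does not pass. Tgfb3 was read by 1 probe set, so no other probe set bears on it. When limma was fitted over 45037 probe sets, the same values gave an interval of -1.11 to 0. The unadjusted p in that fit was 0.0508.

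The lower Tgfb3 signal kept its sign in each of 19 alternative settings, between -0.64 and -0.40, with adjusted p from 0.49 to 0.988. Centring each array on its median ended the separation, since klotho-deficient replicate 3 then read 8830.4 and wild-type replicate 2 read 8514. Under quantile normalization the genotypes stayed apart, at 5779.6 to 7590.6 against 8995.1 to 10386.2. Among the arrays with Y-linked transcripts, klotho-deficient replicate 1 alone lay below all 3 wild-type arrays, and that difference was -0.42. Endothelial markers were also lower in klotho-deficient roots in 7 of 8 cases, with summed intensities of 26804 to 33254 against 30576 to 57480. Mesothelial and epithelial markers were lower in 5 of 6 cases, at 20882 to 33567 against 30138 to 51269. Both lists had their highest sum on wild-type replicate 3, where Tgfb3 was highest too. Without that array the Tgfb3 difference was -0.48, and the part of endothelial, mesothelial or epithelial content in it was not tested.

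Tgfb2, the isoform most tied to valve cushion formation, gave overlapping genotypes. Klotho-deficient arrays read 5830, 4102.1 and 6145.1, and wild-type arrays read 6745.9, 6423.2 and 5123. Klotho-deficient replicate 2 lay under all others, while wild-type replicate 3 was the lowest of its group. The difference was -0.20 ± 0.24 (95% interval -0.77 to 0.38, adjusted p = 0.899), and it was -0.02 without klotho-deficient replicate 2. Its other 3 probe sets gave -0.16, -0.01 and -0.21, and the 4 probe sets followed each other over the arrays with r of 0.70 to 0.95. The main one and those at -0.16 and -0.01 share a source sequence in the annotation, so they are not independent readings.

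Tgfb1, the isoform best known from fibrosis and immune control, was dim on these arrays. Signals were 287.1, 351.1 and 659.2 in klotho-deficient roots and 336.2, 302.5 and 510.7 in wild type. Replicate 3 was the highest of each genotype and the ranges overlapped widely. The difference of 0.12 ± 0.38 (95% interval -0.81 to 1.04, adjusted p = 0.969) was smaller than its error, and it turned to -0.23 without klotho-deficient replicate 3 and to -0.03 without wild-type replicate 2. The other Tgfb1 probe set read 251.4, 283.9 and 95.2 against 186.9, 203.4 and 219.5, a difference of -0.10. Its reading on klotho-deficient replicate 3 was below background, so that difference is uncertain, while the brighter probe set was highest on that array.

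The log ratio of Tgfb2 to Tgfb3 within an array lay between -0.44 and -0.31 in klotho-deficient roots and between -1.11 and -0.46 in wild type. The ranges did not overlap, and the ratio was higher by 0.35 in klotho-deficient roots (exact permutation test, two-sided p = 0.1, the smallest that 3 against 3 arrays allow). Of 12 such ratios within the ligands, the receptors and the binders, 2 others also reached that p, and the adjusted p was 0.4 for each of the 3. A ratio within an array sets 2 transcripts against each other and cannot tell which of them differs between genotypes. The remaining ligand ratios, Tgfb1 to Tgfb2 and Tgfb1 to Tgfb3, differed by 0.32 and 0.67 with overlapping ranges.

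**Figure D2:**
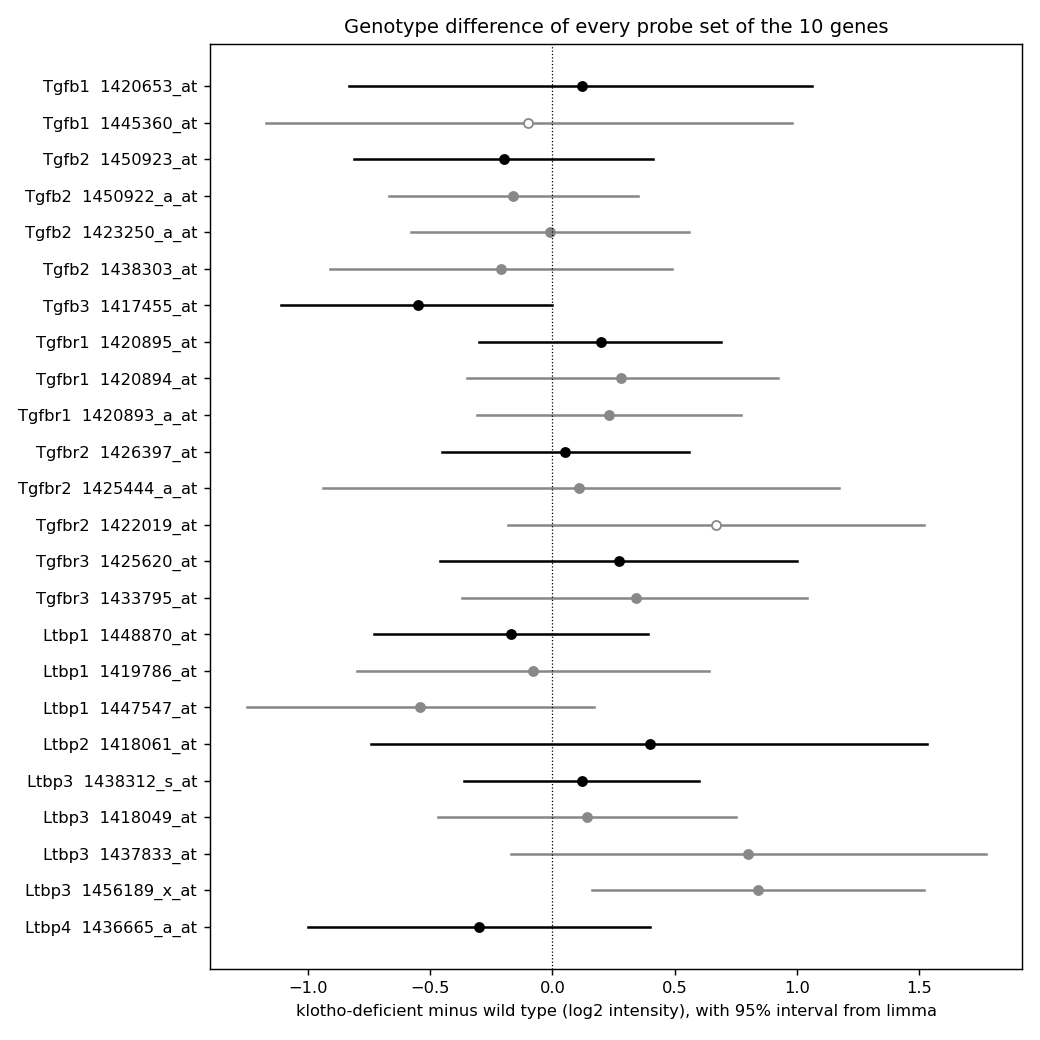
Klotho-deficient minus wild-type difference of log2 intensity for all 24 probe sets, with the 95% interval from limma over 45037 probe sets. Black marks the probe set that stands for its gene, grey the others, and an open circle a probe set that was not above the highest Bacillus control on every array. The intervals cross or touch 0 for all but the Ltbp3 probe set 1456189_x_at.

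All 3 receptors had a higher mean signal in klotho-deficient roots, by small amounts that none of the tests called. Tgfbr1 encodes the type I kinase that phosphorylates Smads. It read 11749.1, 11604.6 and 13105.1 on the klotho-deficient arrays, against 10717.5, 12008.3 and 9233.7. Wild-type replicate 2 lay among the klotho-deficient arrays, so the genotypes overlapped. The difference was 0.20 ± 0.18 (95% interval -0.25 to 0.64, adjusted p = 0.874), or 0.10 without wild-type replicate 3. The 2 other Tgfbr1 probe sets gave 0.28 and 0.23, but they share the source sequence of the main one and are not independent readings.

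Tgfbr2, the ligand-binding type II kinase, showed the smallest difference of the 10 genes. Klotho-deficient signals were 14661.3, 12586.6 and 16972, with 1 below, 1 within and 1 above the wild-type signals of 13469.8, 14021 and 14824.7. The difference of 0.05 ± 0.19 (95% interval -0.40 to 0.51) had an adjusted p of 0.973 and turned to -0.05 without klotho-deficient replicate 3. A dimmer probe set, 1425444_a_at, gave 0.11 and did not follow the main one over the arrays. The probe set 1422019_at was not above background on any array, so it gives no fold.

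Tgfbr3 encodes betaglycan, a co-receptor without kinase activity that binds TGF-beta2 in particular. Its signal was 9382.7, 7195.1 and 12710.1 in klotho-deficient roots and 8682.7, 9201 and 6090.4 in wild type. The highest array was klotho-deficient and the lowest wild type, with the other 4 interleaved. The difference was 0.27 ± 0.29 (95% interval -0.43 to 0.98, adjusted p = 0.886), and 0.06 without klotho-deficient replicate 3. A further probe set agreed in order (r = 0.95) and gave 0.34. Leaving out replicate 3 of both genotypes, an alternative added after seeing the data, turned the Tgfbr3 difference to -0.12.

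The latent binders split evenly, with Ltbp2 and Ltbp3 higher and Ltbp1 and Ltbp4 lower on average. Ltbp1, which carries latent TGF-beta into the fibrillin matrix, read 17664.4, 15472.8 and 21514.6 against 21966.7, 21933.4 and 17374.3. Klotho-deficient replicate 3 lay close to the upper wild-type arrays and wild-type replicate 3 lay among the lower klotho-deficient ones, so the ranges overlapped. The difference was -0.17 ± 0.21 (95% interval -0.68 to 0.34, adjusted p = 0.903), and -0.06 without klotho-deficient replicate 2. Its other probe sets gave -0.08 and -0.54, the last from a dim one, 1447547_at, with an unadjusted p of 0.112.

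Ltbp2 differs from its relatives in that it binds fibrillin but not latent TGF-beta. It showed the widest spread of the 10 genes, at 2671.7, 5331 and 9491.3 on klotho-deficient arrays against 3609.4, 4471.5 and 3678.3. Klotho-deficient replicate 1 lay below every wild-type array, and replicates 2 and 3 lay above all of them. The difference was 0.40 ± 0.46 (95% interval -0.73 to 1.52, adjusted p = 0.898). Without klotho-deficient replicate 3 it was -0.05, and without klotho-deficient replicate 1 it was 0.87.

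The mean of the cartilage markers had the same order over the klotho-deficient arrays as Ltbp2, although Hapln1 and Matn3 were highest on replicate 2. All 7 of them (Col2a1, Acan, Sox9, Col9a1, Hapln1, Matn3 and Cnmd) had a higher mean log2 signal in klotho-deficient roots, with a median difference of 0.93 and 0 past the threshold. For Hapln1 the difference was only 0.02 ± 0.37, and its mean linear intensity was lower (1815 against 1849). The mean log2 signal of the 7, centred per gene over the 6 arrays, was -0.76, 0.93 and 1.34 on klotho-deficient replicates 1 to 3, against -0.56, -0.12 and -0.83 in wild type. The summed intensity ran from 5077 to 21487 in klotho-deficient roots and from 4801 to 7558 in wild type. Of the 7, Matn3 was above background on 1 array and the other 6 on all arrays. Whether cartilage content moves Ltbp2 was not tested.

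Ltbp3, which supports secretion of TGF-beta, had bright and dim probe sets that read differently. The brightest gave 21084.5, 18461.8 and 23292.1 against 19681.9, 19626.6 and 18229.6, with overlapping genotypes. Its difference was 0.12 ± 0.18 (95% interval -0.31 to 0.55, adjusted p = 0.92), and another bright probe set, 1418049_at, gave 0.14. Without klotho-deficient replicate 3 the difference was 0.04, and with the mean of all 4 probe sets it was 0.48 (adjusted p not under 0.779 in any setting). A dim probe set, 1456189_x_at, read 883.1, 825 and 638.5 against 439.7, 566 and 326.3. There every klotho-deficient array lay above every wild-type array, a difference of 0.84 ± 0.28 (95% interval 0.16 to 1.52). Over 45037 probe sets its p was 0.0237 and its adjusted p was 0.88.

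A second dim Ltbp3 probe set, 1437833_at, gave 0.80 ± 0.40 with overlapping genotypes, and both carry the same source sequence accession in the annotation. They are therefore not independent readings. The log ratio of a dim to a bright Ltbp3 probe set within an array was higher by 0.66 to 0.72 in klotho-deficient roots, over 4 such comparisons chosen after the values were seen. The exact permutation test gave two-sided p-values of 0.2 to 0.3 for them. Among all 24 probe sets, 1 had an unadjusted p under 0.05, against 5.36% of all probe sets, and 2 had genotypes that did not overlap, against 11.7%. None passed at the adjusted threshold, against 0% of all probe sets.

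Ltbp4, a binder of TGF-beta1 that also takes part in elastic fibre assembly, was lower in klotho-deficient roots on 2 of 3 arrays. It read 6094.6, 4338 and 8429.4 against 7311.3, 7181.3 and 7980.8. Klotho-deficient replicates 1 and 2 lay below all wild-type arrays and replicate 3 lay above them. The difference was -0.30 ± 0.27 (95% interval -0.97 to 0.36, adjusted p = 0.868). It was -0.54 without klotho-deficient replicate 3 and -0.06 without klotho-deficient replicate 2.

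The ratio of Ltbp3 to Ltbp4 was higher in klotho-deficient roots by 0.43, at 1.47 to 2.09 against 1.19 to 1.45 on the log2 scale. The ratio of Ltbp1 to Ltbp3 was lower, with a difference of -0.29 (-0.26 to -0.11 against -0.07 to 0.16). Both had an exact permutation p of 0.1, the smallest this design allows, and an adjusted p of 0.4 over the 12 ratios. The other ratios among the binders had overlapping ranges.

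Klotho-deficient arrays differed among themselves in these genes more than wild-type arrays did in 9 of 10 cases, Tgfbr1 being the exception. Over all genes the klotho-deficient SD of log2 intensity was the larger in 57.3%. The widest klotho-deficient spreads were those of Ltbp2 (SD 0.92 against 0.17) and Tgfb1 (0.63 against 0.40). For Ltbp4 it was 0.48 against 0.08. Within the klotho-deficient group, replicate 3 was the highest array for 10 of 10 genes and replicate 2 the lowest for 8. Among the 7909 genes with a mean signal over 1000, which include 9 of the 10, replicate 3 was the highest klotho-deficient array in 51.7% and replicate 2 the lowest in 42.4%. Under quantile normalization the counts were 8 and 7 of the 10 genes, against 50.7% and 41.4% of those 7909. Under median centring they were 10 and 8, against 77.1% and 67.4%, so this order was shared by most bright genes there. The arrays had been scaled to a common mean, yet their medians ran from 425.6 on klotho-deficient replicate 3 to 556.6 on klotho-deficient replicate 2.

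Over the 6 arrays the 45 pairs of the 10 genes had a median Pearson r of 0.45, and 38 of them were positive. Over all pairs of the 7909 genes with a mean signal over 1000, the median r was 0.05 and 52.8% were positive. Tgfb2 and Ltbp1, whose promoter windows are printed above, had an r of 0.92 and a Spearman rho of 1.00 (exact permutation p = 0.00139 and 0.00278). Adjusted over the 45 pairs, the first of these was 0.0625. The r was 0.84 without the 2 arrays farthest from the Tgfb2 median, and 0.91 within genotypes. Tgfbr3 and Ltbp3 had an r of 0.95 and a rho of 0.94 (exact permutation p = 0.00278 and 0.0167, the first adjusted to 0.0625), with 0.87 after the same step and 0.94 within genotypes. The lowest r was -0.62, between Tgfb3 and Tgfbr1. All values of an array share its scaling and pool, so these relations describe 6 pools.

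Many genes matched the ligands' patterns closely, as 6 arrays allow. Among 13321 other genes above background, those most like Tgfb3 were Rslcan18 (r = 0.995) and B4galt4 (r = 0.99), and 52 genes had an r over 0.95. For Tgfb2 the closest were Stard13 (r = 0.998) and Wdr1 (r = 0.991), with 47 genes over 0.95. Tspo (r = 0.997) and Tmem222 (r = 0.996) were closest to Tgfb1, with 44 genes over 0.95. These genes were picked as the highest of many, so their r carries no test.

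Around the 10 genes, 84 of 88 other pathway genes were measured on single-gene probe sets, in 5 lists. The other 4 were not analysed here. None of the 84 passed the adjusted threshold, against 0% of all genes, and 6 had an unadjusted p under 0.05 (3 higher and 3 lower) against 6.41% of all genes. List medians lay between -0.04 and 0.03 on the log2 scale, against 0 for all genes. Genes without overlap, higher and lower, were 2 and 3 of 22 for the latent complex and 1 and 0 of 9 for co-receptors. For Smad mediators they were 1 and 1 of 14, and for matrix proteoglycans and inhibitors 0 and 2 of 7. The induced genes had 3 and 1 of 32. Over all genes 13.5% did not overlap.

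**Figure D3:**
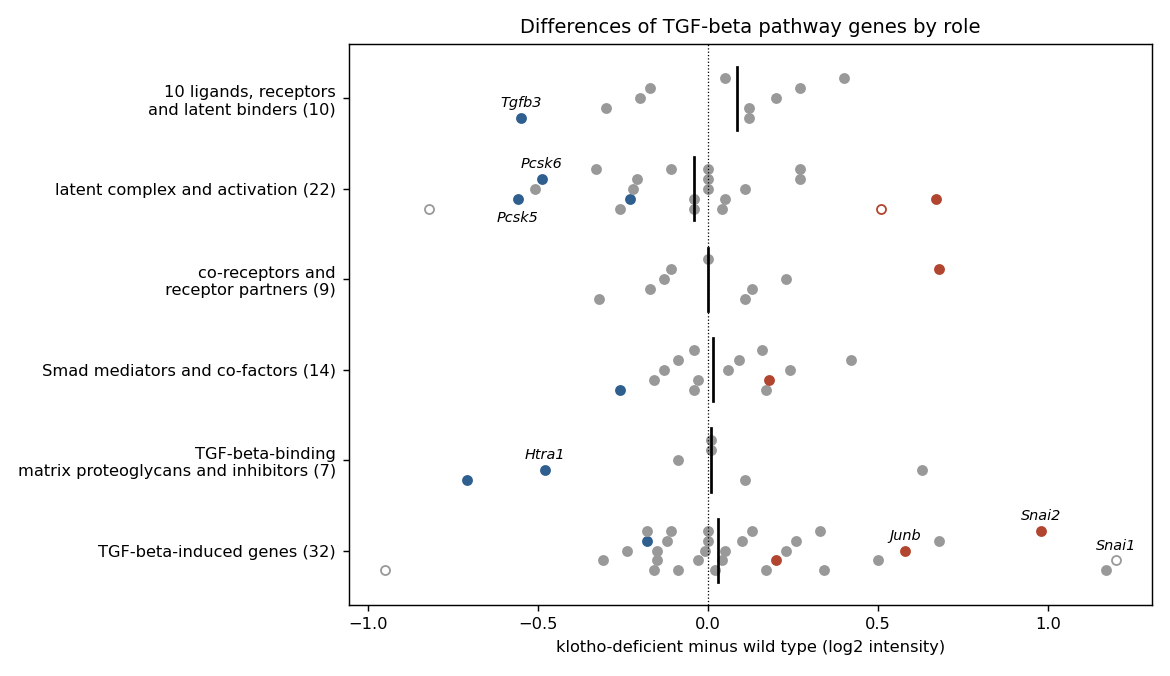
Klotho-deficient minus wild-type difference of log2 intensity for the 10 genes and 5 lists of pathway genes, with the number measured in brackets and a black bar at each median. Red and blue points are genes whose genotypes do not overlap (higher and lower), grey points overlap, open points exceeded background on fewer than 3 arrays, and names mark an unadjusted p under 0.05. The medians lie between -0.04 and 0.09.

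Of 22 measured genes that hold or activate the latent complex, 8 were higher and 14 lower. In limma 0 passed and 2 had an unadjusted p under 0.05, against 6.41% of all genes. Both encode proprotein convertases, the protease family that cleaves TGF-beta propeptides. Pcsk6 read 1179.8, 1076.7 and 1331.8 in klotho-deficient roots and 1688.8, 1770.3 and 1557.7 in wild type. Pcsk5 read 4271.8, 3321.9 and 4976.1 against 6235.9, 6576.3 and 5571.1. In both, all klotho-deficient arrays lay below all wild-type arrays. The differences were -0.49 ± 0.18 (unadjusted p of 0.0315, adjusted p = 0.753) for Pcsk6 and -0.56 ± 0.21 (unadjusted p of 0.0381, adjusted p = 0.763) for Pcsk5 in limma. All 5 Pcsk5 probe sets had a lower mean, with differences of -0.73 to -0.40 for the 4 that were above background on every array. Furin, the convertase usually named for TGF-beta, had a difference of 0.

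None of the other named genes of that list had an unadjusted p under 0.05 in limma. Itgb8, the integrin subunit whose pairing with alpha-v activates latent TGF-beta, was 0.67 ± 0.34 with genotypes that did not overlap (unadjusted p of 0.0961), and 0.34 without wild-type replicate 3. Adamtsl2, a fibrillin-binding matrix protein, was -0.51 ± 0.33, and -0.24 without the same array. Tgm2, the transglutaminase that cross-links latent complexes to matrix, was -0.23 ± 0.18 without overlap on the probe set that stands for it. Its probe sets 1417500_a_at and 1433428_x_at did not overlap either, at -0.45 and -0.26. Genotypes overlapped on 1426004_a_at and 1455900_x_at, at -0.08 and -0.16. Mmp9, a gelatinase, was 0.27 ± 0.23. Plg, the plasminogen gene, did not overlap but was below background on all 6 arrays, so it gives no fold.

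Of 9 co-receptors and receptor partners, 4 were higher and 5 lower, with 0 at an unadjusted p under 0.05. Cd109, a membrane protein that binds TGF-beta and dampens its signal, was 0.68 ± 0.42, its genotypes apart mainly through klotho-deficient replicate 3 (2197.6, with 799.4 and 825.2 on replicates 2 and 1, against 646.6 to 783.3 in wild type). The other Cd109 probe set, 1425658_at, gave 0.49 with overlapping genotypes. Acvrl1, the endothelial type I receptor, was -0.32 ± 0.32 and Bambi, a decoy receptor, -0.17 ± 0.35. Zfyve9, the Smad anchor protein, was 0.23 ± 0.23. Fkbp1a, which binds the type I receptor, was -0.13 ± 0.18, and Tgfbrap1, a receptor-associated protein, 0.11 ± 0.18.

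The 14 Smad mediators and co-factors divided into 7 higher and 7 lower, with 0 at an unadjusted p under 0.05. Smurf2, a ubiquitin ligase that marks receptors and Smads for breakdown, had genotypes that did not overlap, at -0.26 ± 0.16. So did Ppm1a, a Smad phosphatase, at 0.18 ± 0.16 on the probe set that stands for it. Other Ppm1a probe sets ran from -0.23 to 0.14, each with overlapping genotypes. Of the other Smurf2 probe sets, 1429045_at gave -0.21 without overlap and 1454894_at gave -0.18 with overlap. Tgif1, a Smad co-repressor, was 0.42 ± 0.22, and its relative Tgif2 was -0.16 ± 0.17. The other Tgif2 probe set, 1431115_at, gave -0.53 ± 0.24 without overlap (unadjusted p of 0.0717 in limma over all probe sets). The co-repressor Ski was 0.24 ± 0.19, with -0.20 on its other probe set, and the ubiquitin ligase Wwp1 was 0.17 ± 0.22. The signal-carrying Smad2, Smad3 and Smad4 gave -0.04, -0.04 and 0.09.

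Of 7 matrix proteoglycans and inhibitors that bind TGF-beta, 4 were higher and 3 lower. In limma 1 had an unadjusted p under 0.05, against 6.41% of all genes. Htra1, a secreted serine protease that degrades TGF-beta pathway proteins, read 15424.3, 12150.4 and 16748.8 against 20976.2, 19747.9 and 20679.8. Every klotho-deficient array lay below the wild-type range, which was narrow. The difference was -0.48 ± 0.19 (unadjusted p of 0.0447, adjusted p = 0.77), and another Htra1 probe set gave -0.55 with overlap. A2m, a plasma protease inhibitor that binds TGF-beta, was -0.71 ± 0.32 (unadjusted p of 0.0644) without overlap, at 437.2 to 775.1 against 830 to 1373.7.

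The remaining members of that list overlapped. Aspn, or asporin, a small leucine-rich proteoglycan that binds TGF-beta, was 0.63 ± 0.33. Its relatives fibromodulin (Fmod) and biglycan (Bgn) gave -0.09 ± 0.25 and 0.01 ± 0.16. Htra3, a relative of Htra1, was 0.11 ± 0.20 on the probe set that stands for it.

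Among 32 measured genes that TGF-beta is known to induce, 19 were higher and 13 lower. In limma 3 had an unadjusted p under 0.05, all higher, against 6.41% of all genes in either direction. Snai2, a transcription factor of the mesenchymal transition that forms valve cushions, read 9144.2, 6551.8 and 9249.1 in klotho-deficient roots and 5677.3, 4587.3 and 2797.4 in wild type. No arrays overlapped, and the lowest was wild-type replicate 3. Means were 8315 ± 1530 against 4354 ± 1450 (SD, n = 3), 1.97-fold, with a difference of 0.98 ± 0.32 (unadjusted p of 0.0215, adjusted p = 0.723). It was 0.69 without wild-type replicate 3, and the other Snai2 probe set gave 0.71.

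Junb, an immediate early transcription factor, was dim, at 190.1, 265.8 and 270.1 against 162.8, 180 and 138.4. Its genotypes did not overlap and the difference was 0.58 ± 0.22 (unadjusted p of 0.0388, adjusted p = 0.763). Wild-type replicate 3 was below the background of 161.8 and wild-type replicate 1 was close to it, so that difference is uncertain. Snai1, the relative of Snai2, is named after its values were seen. It was below background on all wild-type arrays and above it on 2 klotho-deficient arrays (unadjusted p of 0.0318, adjusted p = 0.753 in limma). Klotho-deficient replicate 2 was below background too, at 134.2 against 137.8 on wild-type replicate 3. The genotypes of Snai1 therefore overlapped, and no fold is given.

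**Figure D4:**
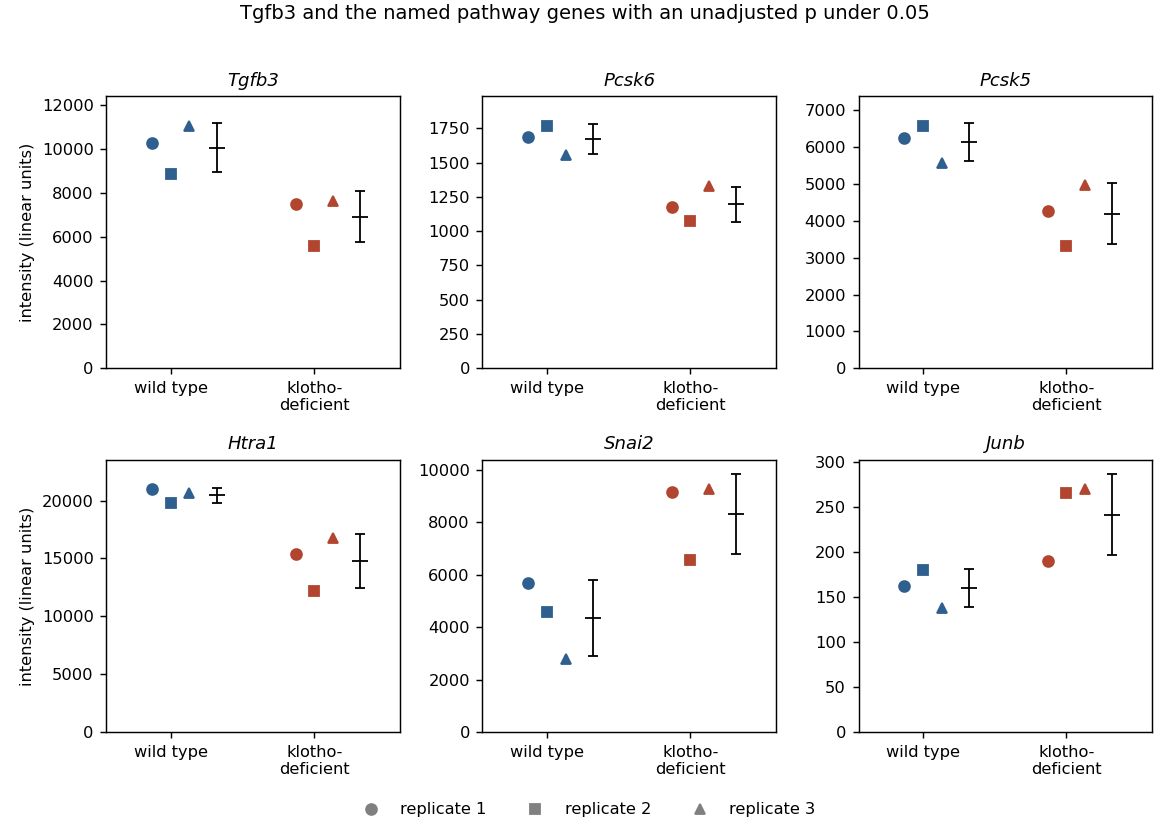
Linear intensity on each array of Tgfb3 and of the named pathway genes with an unadjusted p under 0.05, wild type in blue and klotho-deficient in red, with symbols for replicate numbers and the mean ± SD of 3 arrays in black. Genotypes do not overlap in any panel, Tgfb3, Pcsk6, Pcsk5 and Htra1 being lower and Snai2 and Junb higher in klotho-deficient roots. No gene shown passed after adjustment, and Junb was below background on wild-type replicate 3. The genes were picked by a small p, which favours genotypes that do not overlap. Snai1, also at an unadjusted p under 0.05 in limma, is not shown, and its genotypes overlapped.

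A few further genes of the induced list are given as examples chosen after their values were seen. Connective tissue growth factor (Ccn2) had a difference of -0.03 ± 0.18, and Pmepa1, a feedback inhibitor, one of -0.11 ± 0.16. Elastin (Eln) read 41451.6, 33392.5 and 31094.7 against 40757.5, 36534.7 and 28855.5, a difference of 0 ± 0.22. Smooth muscle actin (Acta2) gave -0.01 ± 0.20 and collagen I (Col1a1) gave 0 ± 0.24. Each of these differences was smaller than its SE. Other matrix genes of the list lay further from 0, such as Comp (0.68 ± 0.70) and Fn1 (0.26 ± 0.30), but these too were smaller than their SE.

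The other named genes of the induced list were Has2, Timp3, Klf10 and Col5a1. Has2, a hyaluronan synthase of the valve cushion, was 1.17 ± 0.58 with overlapping genotypes (unadjusted p of 0.0885). It was 0.04 under both treatments of the Y-linked transcripts, as a covariate and with klotho-deficient replicates 2 and 3 left out. Timp3, a matrix-bound protease inhibitor, was 0.20 ± 0.16 without overlap, at 26215.8 to 29951 against 23858.6 to 24795.5. Its other probe sets gave 0.34, 0.27 and 0.34, each with overlapping genotypes. Klf10, an early response transcription factor, was -0.31 ± 0.25, and Col5a1, a chain of collagen V, was 0.23 ± 0.20.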

How the data were processed

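The authors deposited 1 linear intensity per probe set and array. RMA is listed, per the submitters' processing notes, with no version, and how a linear scale was reached is not stated. The arrays shared a mean of 1500 after trimming 2% at each end. Intensities were log2-transformed with no pseudocount or further normalization. A gene was represented by its single-gene probe set of highest mean log2 intensity. The test was limma's (lmFit, eBayes; version 3.58.1, R 4.3.3), two-sided with 4 residual degrees of freedom and a threshold of 0.05 after Benjamini-Hochberg adjustment over 18193 genes, or over 45037 probe sets where a probe set is discussed; the code was tested on simulated data. Gene names came from the platform annotation, which can be old; 932 probe sets had several genes and 9160 none. All p-values called adjusted come from limma unless a permutation test is named.

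The 10 genes and the lists were chosen with earlier results of these data known. Named pathway genes were up to 6 per list, by smallest p among those above the highest Bacillus control on at least 3 arrays; those named outside this rule (Furin, Plg, Smad2, Smad3, Smad4, Snai1, Ccn2, Pmepa1, Eln, Acta2, Col1a1, Comp, Thbs1, Fn1) were picked after their values were seen. Plots used Python 3.11.15 with matplotlib 3.10.9.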

Additional observations from a re-analysis of the deposited data

How the results depend on the processing

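Across 19 alternative settings, 178 of 190 differences of the 10 genes kept their sign and 0 of the 10 genes passed the threshold in any of them. Over all genes 0 to 2 passed. The count of the 10 genes at an unadjusted p under 0.05 was 1 as reported and 0 under median centring, with a covariate for Y-linked transcripts, with klotho-deficient arrays lacking these left out (1 array against 3, its spread from wild type only), and without both arrays of number 3 (added after seeing the data); leaving out single arrays gave 0 to 1. The gene counted was not always Tgfb3, since Ltbp2 reached an unadjusted p of 0.0414 in limma among these settings. The count without overlap was 1 as reported (13.5% of all genes), 0 under median centring (10.6%), 3 with the mean and 2 with the median of probe sets (12.8% each). With fewer arrays more genes are free of overlap: it was 6 without the arrays lacking Y-linked transcripts (55.8% of all genes), 4 without both arrays of number 3 (42.5%) and 1 to 3 with single arrays left out (21.2% to 29.4%). Tgfb3 was among them in every setting but median centring.

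Signs turned as follows; the causes were not tested. With array weights, Bambi was 0.07, 1425444_a_at (Tgfbr2) -0.37 and 1445360_at (Tgfb1) 0.23. Bgn was -0.16 with the mean and -0.14 with the median of probe sets, where Ppm1a was -0.09. Both treatments of Y-linked transcripts gave Tgfb1 -0.38, Ltbp2 -0.55, Bambi 0.11, 1419786_at (Ltbp1) 0.16, 1423250_a_at (Tgfb2) 0.17, 1425444_a_at -0.62 and 1445360_at 0.31. Without both arrays of number 3, values were Tgfb1 -0.01, Tgfbr2 -0.02, Tgfbr3 -0.12, Ltbp2 -0.09, Mmp9 -0.02, Zfyve9 -0.03, Fkbp1a 0.02, Htra3 -0.03, 1418049_at (Ltbp3) -0.10, 1425444_a_at -0.19 and 1445360_at 0.45. With single arrays left out, Tgfb1 ranged from -0.23 to 0.37, Tgfbr2 from -0.05 to 0.16, Ltbp2 from -0.05 to 0.87, Bambi from -0.36 to 0.10, Fmod from -0.31 to 0.08 and Bgn from -0.03 to 0.06. Among probe sets, the ranges were -0.04 to 0.33 for 1418049_at, -0.32 to 0.14 for 1419786_at, -0.17 to 0.09 for 1423250_a_at, -0.13 to 0.48 for 1425444_a_at and -0.39 to 0.40 for 1445360_at.

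Deviations of same-numbered arrays correlated at 0.17, -0.01 and 0.16. The labels do not say whether the numbers pair the pools, and correlations of expression cannot settle it. With a replicate block, 0 of the 10 genes passed and Tgfb3 was -0.55 with an adjusted p of 0.725; the block changed no call. The number of arrays limits the precision, dim probe sets near background most.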

Other observations

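Htra3 probe sets disagreed. The probe set 1427029_at read 603.5, 657 and 699.9 in klotho-deficient roots and 284.1, 435.2 and 359.1 in wild type, a difference of 0.88 with no overlap (unadjusted p of 0.00891, adjusted p = 0.823 in limma over all probe sets). The brighter one that stands for the gene gave 0.11, and the dimmest, 1431762_at, gave -0.03. All 3 are described after their values were seen.

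Some matrix genes of the pathway lists followed the same order over the klotho-deficient arrays as Ltbp2 and the mean of the cartilage markers. Comp, cartilage oligomeric matrix protein, read 2358.2, 5908.9 and 16900.9 there, against 3033.7 to 4487.4 in wild type. Thbs1, thrombospondin, an activator of latent TGF-beta, read 2154.4, 2778.6 and 9238.8, against 2976.3 to 3915.9. Fn1, fibronectin, read 14141.5, 19021.1 and 27674.4, against 13827.7 to 19432.8. In all 3 genes the genotypes overlapped, they were picked for this order after their values were seen, and the part of cartilage content was not tested.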
